A study of Mus musculus with 8 samples.

Results

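Heat shock proteins and the cochaperones that work with them were followed in mouse embryonic fibroblasts (MEFs) that carried either wild-type Stat3 or the redox-insensitive mutant Stat3-C3S. The 36 genes were chosen by symbol from general knowledge of the family, with earlier results of these data known. All 36 were among the 19041 rows of the count table. They comprise the Hsp70, Hsp110, Hsp90 and small heat shock proteins, the mitochondrial chaperonin pair, J-domain proteins, other cochaperones, the collagen chaperone Serpinh1 and the transcription factors Hsf1 and Hsf2. The table holds expected counts, that is estimated reads for each gene, with fractions allowed. All 36 genes passed the filter for testing, a mean of at least 10 counts in 1 or more groups, as did 13538 genes in all.

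Both lines came from immortalised MEFs of Stat3 fl/fl embryos, in which the cells' own Stat3 was deleted with a Cre-Thy1.1 retroviral (MSCV) vector. They were then transduced with GFP together with Stat3-C3S (C3S cells) or WT-Stat3 (WT cells) and sorted as polyclonal lines, and were used at passages 15 to 20. C3S and WT cells were treated for 2 h with 100 µM H2O2 or left untreated (basal), with 2 libraries in each of the 4 groups. Each genotype is therefore 1 sorted line, so the effect of the mutant protein and any other difference between the lines cannot be told apart. The study's text calls the libraries biological replicates, but the labels do not say that they came from separate cultures, and the p-values measure only the spread between these samples.

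Heat shock proteins keep other proteins folded. Hsp70 proteins bind unfolded stretches and use ATP to release them, J-domain proteins deliver the substrates and start the ATP cycle, and nucleotide exchange factors such as Bag3 and the Hsp110 proteins reset it. Hsp90 works downstream on signalling proteins, including kinases and transcription factors, and small heat shock proteins hold unfolded proteins without ATP. When proteins unfold under heat, oxidants or heavy metals, the factor Hsf1 binds heat shock elements, inverted repeats of the short unit GAA, in the promoters of the inducible members, while close relatives such as Hspa8 and Hsp90ab1 are made at a high level in unstressed cells.

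Promoters of members were read from RefSeq (GRCm38.p6) as windows from 250 bases before to 50 bases after each annotated start. The table held 42 windows for 29 of the 36 members. Hspa8, Hspa9, Hspa13, Cryab, Hsp90aa1, Hsp90ab1 and Hsf1 were not in it. A match of 2 inverted units (GAANNTTC or TTCNNGAA, either strand, where N is any base) lay in 16 of the 42 windows (38.1%), belonging to 14 genes. The same letters lay in 12.6% of the 17059 windows of genes in the count table and in 15.1% of all 32851 windows. A match of 3 units, that is both forms overlapping in their shared unit, lay in 7 of the 42 windows (16.7%) and 5 genes, against 0.516% of windows of genes in the count table. The Stat3 consensus TTCCNGGAA lay in 0 of the 42 windows, against 1.24% of windows of genes in the count table. Windows of 1 gene can overlap, and the divergent genes Hspd1 and Hspe1 share theirs. A match is only a match of letters.

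The stretches below carry elements of the inducible Hsp70 pair, of Hspb1 with its 2 separate elements, and of members with 3 units. Not shown are Hspd1, which shares its element with Hspe1, and Dnaja4, whose second window had elements at -90 to -83 and at -52 to -45. Heat shock element matches are in capitals, the sequences run 5′ to 3′ on the strand of the gene, and positions count from the annotated start at +1, with no 0. The Hspa1a stretch is chr17:34972157-34972306, minus strand, -150 to -1. Hspa1b is chr17:34959239-34959388, minus strand, -150 to -1. Hspb1 is chr5:135887769-135887918, plus strand, -150 to -1. Hspe1 is chr1:55087998-55088147, plus strand, -150 to -1. Hsph1, at the first of its annotated starts in the table, is chr5:149636288-149636405, minus strand, -90 to +28. Dnajb6, at the second of its starts, is chr5:29735829-29735978, plus strand, -150 to -1. Chordc1 is chr9:18292217-18292286, plus strand, -50 to +20.
Hspa1a: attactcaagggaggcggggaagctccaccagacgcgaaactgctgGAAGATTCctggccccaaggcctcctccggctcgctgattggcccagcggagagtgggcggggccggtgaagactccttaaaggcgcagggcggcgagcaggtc
Hspa1b: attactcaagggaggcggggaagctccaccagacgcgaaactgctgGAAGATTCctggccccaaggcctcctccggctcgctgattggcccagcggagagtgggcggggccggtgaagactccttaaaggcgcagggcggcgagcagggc
Hspb1: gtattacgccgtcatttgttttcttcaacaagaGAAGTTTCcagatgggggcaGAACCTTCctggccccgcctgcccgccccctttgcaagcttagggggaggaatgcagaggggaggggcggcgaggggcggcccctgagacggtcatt
Hspe1: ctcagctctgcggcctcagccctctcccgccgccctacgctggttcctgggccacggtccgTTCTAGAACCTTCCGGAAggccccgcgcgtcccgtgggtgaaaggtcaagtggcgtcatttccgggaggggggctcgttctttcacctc
Hsph1: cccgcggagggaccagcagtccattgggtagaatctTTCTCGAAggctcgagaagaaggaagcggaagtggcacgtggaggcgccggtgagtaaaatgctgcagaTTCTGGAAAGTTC
Dnajb6: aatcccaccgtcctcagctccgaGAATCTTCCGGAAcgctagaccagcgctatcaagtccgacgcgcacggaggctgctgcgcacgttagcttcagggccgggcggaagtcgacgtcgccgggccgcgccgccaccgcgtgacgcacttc
Chordc1: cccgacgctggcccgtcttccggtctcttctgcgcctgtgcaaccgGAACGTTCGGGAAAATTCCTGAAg

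Over the 250 bases before the start, the Hspa1a and Hspa1b promoters were identical at 247 positions, and both had 1 element at -104 to -97. Over the last 150 bases they were identical at 149. Hspb1 had 2 separate elements, at -117 to -110 and at -97 to -90. The elements of Hspe1 overlapped to span -89 to -72, and 4 overlapping elements of Chordc1 spanned the start itself, from -4 to +19. Another, at +34 to +41, lies beyond the stretch shown. No element was matched in the windows of Hspa1l, Hspa2 or Dnajb1. Of the 13 members that were higher after H2O2 in both lines by the test given further on, 12 had a window and 7 of them held an element (Bag3, Hspa1a, Hspa1b, Hspb1, Hspb8, Hspd1 and Hsph1), against 7 of the 17 other members with a window. Those 7 other members included Hspe1, higher by adjusted p in WT cells only, and Dnajb4 and Dnajb6, higher in C3S cells only. The presence of the letters did not go with a rise in every case. Chordc1, with 5 matches of 2 units, had log2 fold changes after H2O2 of 0.01 in C3S cells and -0.13 in WT cells.

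**Figure D1:**
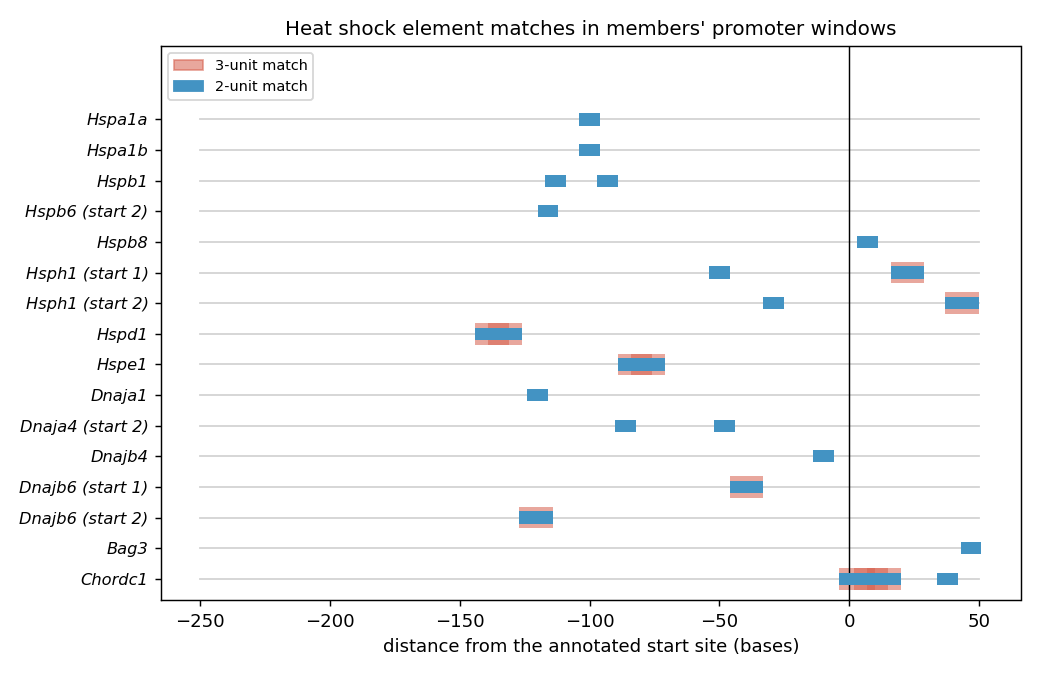
Heat shock element matches in the promoter windows that held any, by distance in bases from the annotated start site (vertical line). Blue bars are matches of 2 units and pale red bars matches of 3 units, with 1 row for each window. The windows of Hspa1a and Hspa1b each hold 1 match at -104 to -97, and those of Hsph1, Hspd1, Hspe1, Dnajb6 and Chordc1 hold 3-unit matches.

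Library totals ran from 17050016 to 22260814 counts. From 14445 to 14771 genes had at least 1 count in C3S basal libraries and 14862 to 15052 in WT basal libraries, against 15734 to 15865 in C3S and 16637 to 16681 in WT libraries after H2O2. Stat3 itself had 4650 to 5160 normalised counts in C3S libraries and 7425 to 8835 in WT libraries. Of 10 fibroblast markers, 9 were in the table and none of these was at 0 in any library. They summed to 9067 to 9230 CPM (counts scaled to the library total) in C3S H2O2 libraries, against 9923 to 9929 in C3S basal libraries, and to 6139 to 6563 in WT H2O2 libraries, against 8074 to 8085 in WT basal libraries. After H2O2, 7 of the 9 were lower in C3S cells and 9 of 9 in WT cells by the adjusted p used below. Of all genes tested, 20.8% were lower in C3S cells and 26.2% in WT cells by the same threshold. Leukocyte markers (7 of 8 in the table) summed to 5.19 to 7.66 CPM in C3S H2O2 libraries, against 0.915 to 1.41 in C3S basal libraries, and to 6.90 to 7.13 in WT H2O2 libraries, against 1.82 to 2.98 in WT basal libraries. Endothelial markers (5 of 5) summed to 10.5 to 12.1 in C3S and 4.49 to 6.04 in WT libraries. Epithelial markers (6 of 6) summed to 1.58 to 3.88 in C3S and 27.4 to 37.7 in WT libraries. Muscle markers (4 of 6) summed to 0 to 2.43 in C3S and 4.96 to 8.04 in WT libraries. Genes of these lists did not move alike. The leukocyte gene Ptprc reached at most 3.33 normalised counts in any library, while Itgam had 53.4 to 77.6 in C3S H2O2 libraries, against 1.20 to 1.88 in C3S basal libraries, and 41.7 to 44.2 in WT H2O2 libraries, against 0 to 0.989 in WT basal libraries. Among epithelial genes Epcam reached at most 8.73, while Krt14 had 15.6 to 21.7 in C3S and 224 to 278 in WT libraries. The muscle gene Myh3 had 31.7 to 42.2 in C3S and 52.4 to 61.6 in WT H2O2 libraries, against 0 in every basal library. Des, of the same list, had 78.9 to 87.3 in WT H2O2 libraries, against 95.7 to 101 in WT basal libraries. In C3S cells Des had 1.11 to 3.28 in H2O2 libraries, against 0 in basal libraries. The endothelial gene Pecam1 had 20.7 to 21.1 in C3S and 17.5 to 27.0 in WT H2O2 libraries, against at most 0.988 in basal libraries. Kdr, also endothelial, had 176 to 188 in C3S H2O2 libraries, against 236 to 244 in C3S basal libraries. In WT cells Kdr had 74.6 to 80.0 in H2O2 libraries, against 81.0 to 106 in basal libraries. The part of these differences in the comparisons below was not tested.

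Values below are normalised read counts, which are expected counts divided by a size factor per library, so every change is relative to the typical gene. In bulk RNA, fewer cells that use a gene and less RNA per cell cannot be told apart. Differences were tested with edgeR's quasi-likelihood test on rounded counts, with Benjamini-Hochberg adjustment of p over every gene tested. A gene is called when its adjusted p is under 0.05 and its change at least 2-fold. Counts by adjusted p alone set no minimum fold, so they include the called genes. Together the 36 genes took 1.79% of counts in both C3S H2O2 libraries, against 1.54% and 1.56% in C3S basal libraries, and 1.80% and 1.75% in WT H2O2 libraries, against 1.54% in both WT basal libraries.

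The inducible Hsp70 pair rose after H2O2 in both lines, by less in C3S than in WT cells. Hspa1a and Hspa1b encode nearly the same stress-induced Hsp70 protein. They lie on the minus strand of chromosome 17, at 34969190 to 34972156 and at 34956436 to 34959238 (GRCm38, the same build as mm10). Of the possible 50-base reads from Hspa1a exons, 58.8% also occur in Hspa1b, and 62.3% of those from Hspa1b occur in Hspa1a. Over all 4 genes that share such reads with Hspa1a, the share was 66.3%. Exons of Gm20481 on the opposite strand cover 564 bases of Hspa1a exons, so its reads are uncertain if strand was not used. The study used uniquely mapped reads, yet the unscaled counts of both copies held fractions (Hspa1a 179.426 and Hspa1b 591.659 in WT basal replicate 1). How reads shared between the copies were treated is not given in the sources used here. The levels of the copies and the split between them are therefore uncertain, and their sum was tested as well.

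Hspa1a had 511 and 548 normalised counts in C3S H2O2 libraries, against 184 and 191 in C3S basal libraries. In WT cells it had 1118 and 1169 in H2O2 libraries, against 177 and 98.6 in basal libraries. The groups did not overlap, and WT H2O2 libraries stood highest. The log2 fold change after H2O2 was 1.49 in C3S cells (SE 0.101, edgeR adjusted p = 4.63e-10) and 3.04 in WT cells (SE 0.188, edgeR adjusted p = 5.57e-05).

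Hspa1b, the more abundant copy, had 2506 and 2474 normalised counts in C3S H2O2 libraries, against 1149 and 1044 in C3S basal libraries. WT cells had 2650 and 2548 in H2O2 libraries, against 585 and 652 in basal libraries. Levels after H2O2 were thus close in both lines, and it was the basal levels that stood apart. Hspa1b rose by 1.19 in C3S cells on a log2 scale (SE 0.0547, edgeR adjusted p = 1.39e-12) and by 2.07 in WT cells (SE 0.0588, edgeR adjusted p = 1.01e-44).

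Summed, the copies had 3017 and 3022 normalised counts in C3S H2O2 libraries, against 1334 and 1235 in C3S basal libraries. In WT cells the sum was 3768 and 3717 after H2O2, against 762 and 751 at baseline. The sum was called higher in both lines, by 2.36-fold in C3S cells (log2 change 1.24, SE 0.0513, edgeR adjusted p = 3.18e-13) and 4.95-fold in WT cells (log2 change 2.31, SE 0.0542, edgeR adjusted p = 3.86e-50). The interaction of line and treatment, which tests the difference of responses as C3S minus WT on all 8 libraries, was -1.07 for the sum (SE 0.0736, edgeR adjusted p = 8.53e-13). It was -1.55 for Hspa1a (SE 0.217, edgeR adjusted p = 0.000247) and -0.89 for Hspa1b (SE 0.0831, edgeR adjusted p = 1.34e-09).

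The lines differed in opposite directions before and after the oxidant. At baseline the sum was higher in C3S than in WT cells by 0.76 on a log2 scale (SE 0.0645, edgeR adjusted p = 1.43e-15), and after H2O2 it was lower (log2 difference -0.31, SE 0.0406, edgeR adjusted p = 1.98e-09), both under 2-fold. Hspa1a was called lower in C3S cells after H2O2 (log2 change -1.11, SE 0.0674, edgeR adjusted p = 1.29e-21). Hspa1b differed there by -0.06 (adjusted p = 0.22), but was higher in C3S cells at baseline by 0.83 (SE 0.0708, edgeR adjusted p = 3.93e-15). Hspa1a made up 16.9% and 18.1% of the pair's reads in C3S H2O2 libraries and 13.8% and 15.5% in C3S basal libraries. In WT cells it made up 29.7% and 31.4% after H2O2, against 23.3% and 13.1% at baseline.

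**Figure D2:**
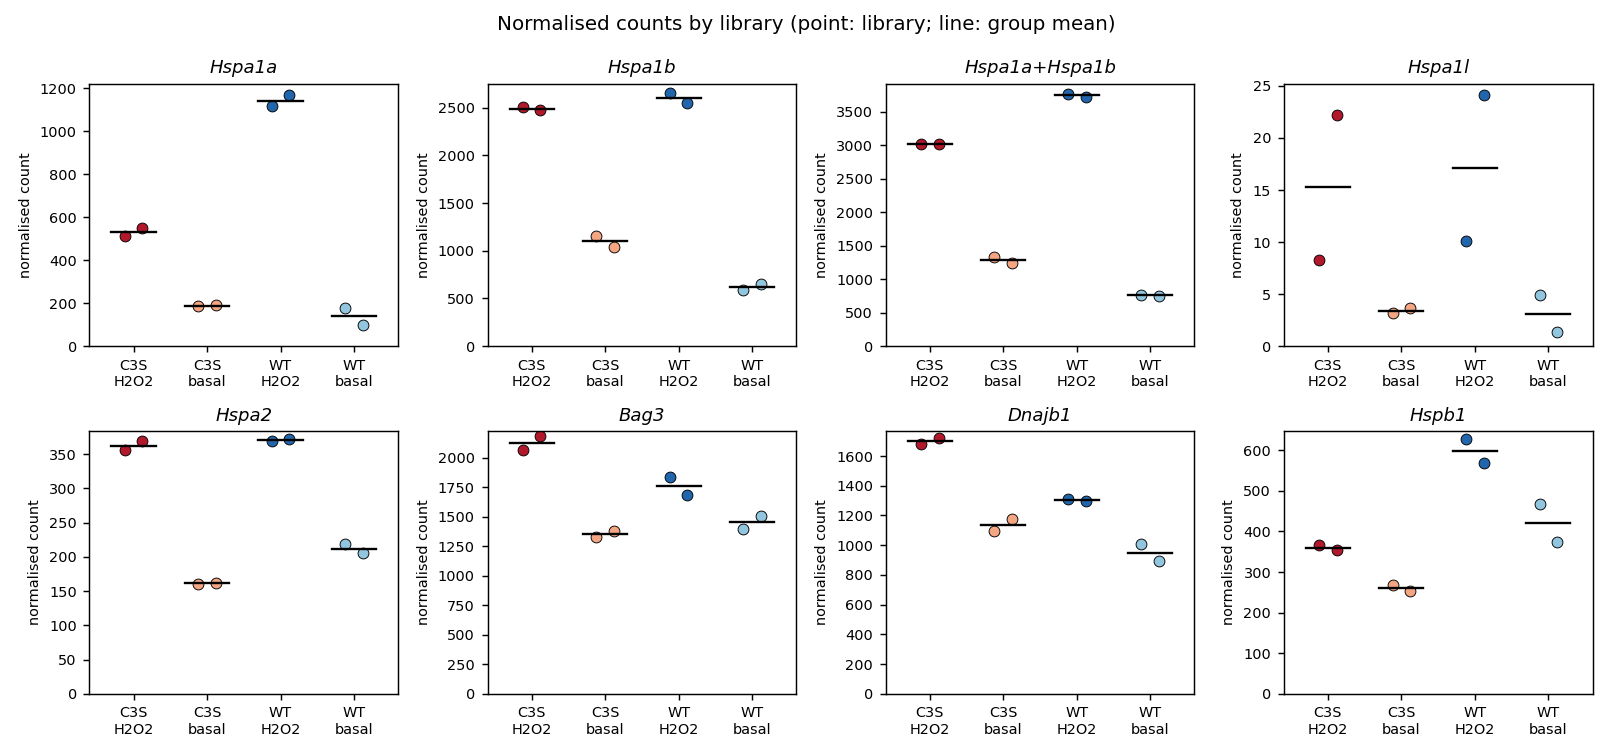
Normalised counts (vertical axis, from 0, a scale of its own for each gene) of Hspa1a, Hspa1b, their sum, Hspa1l, Hspa2, Bag3, Dnajb1 and Hspb1 in C3S H2O2, C3S basal, WT H2O2 and WT basal cells. Points are libraries, 2 per group, and lines are group means. The Hspa1a and Hspa1b sum stands at 3017 and 3022 in C3S H2O2 libraries and at 3768 and 3717 in WT H2O2 libraries, from a higher base in C3S cells.

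Hspa1l, a testis-enriched Hsp70 encoded beside Hspa1a on the opposite strand of chromosome 17 (34972703 to 34979285), was counted at few reads. It had 8.29 and 22.2 normalised counts in C3S H2O2 libraries, against 3.19 and 3.63 in C3S basal libraries, and 10.1 and 24.1 in WT H2O2 libraries, against 4.91 and 1.32 in WT basal libraries. It was called higher in C3S cells (log2 change 2.03, SE 0.681, edgeR adjusted p = 0.0236) and in WT cells (log2 change 2.44, SE 0.675, edgeR adjusted p = 0.00207). The libraries of each H2O2 group differed by more than 2-fold. In WT cells the log2 change was 1.71 without H2O2 replicate 2, where the call was lost (adjusted p = 0.142), 1.76 without basal replicate 2 and 3.87 without basal replicate 1. In C3S cells it was 1.21 without H2O2 replicate 2, where the call was lost (adjusted p = 0.338). The C3S call was also lost, at log2 changes of 1.99 to 2.09, without basal replicate 1 (adjusted p = 0.111), without basal replicate 2 (0.141) and with DESeq2 (0.135). Antisense gene Gm10501 covers 1778 bases of its exons. The strand setting of the counting is not given in the sources used here, and without strand the reads of both genes cannot be told apart.

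Hspa2, another Hsp70 best known from male germ cells, had 355 and 369 normalised counts in C3S H2O2 libraries, against 161 and 162 in C3S basal libraries. In WT cells it had 368 and 373 in H2O2 libraries, against 218 and 206 in basal libraries. The H2O2 libraries of both lines reached the same range. It was called higher in C3S cells (log2 change 1.16, SE 0.114, edgeR adjusted p = 9.05e-08), and in WT cells it rose by 0.80 (SE 0.107, edgeR adjusted p = 1.81e-09). The difference of the responses was 0.36 (SE 0.154, edgeR adjusted p = 0.125) and did not pass the test. At baseline Hspa2 was lower in C3S cells (log2 difference -0.40, edgeR adjusted p = 0.00951).

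Across the family, 4 of 36 genes were called higher and 0 lower after H2O2 in C3S cells (Hspa1a, Hspa1b, Hspa1l and Hspa2), against 7.17% and 1.48% of all genes tested. In WT cells 3 were called higher and 0 lower (Hspa1a, Hspa1b and Hspa1l), against 7.59% and 1.77% of all genes. The counts of called members are near what these shares of 36 genes would give. By adjusted p alone, 21 members were higher and 0 lower in C3S cells, against 17.2% and 20.8% of all genes. In WT cells 15 were higher and 4 lower, against 18.1% and 26.2% of all genes. The count of 15 fell to 9 without WT H2O2 replicate 2. With TMM scaling the WT counts of 15 and 4 became 20 and 3, while the C3S counts stayed at 21 and 0. With DESeq2 the count of 4 fell to 1. The median log2 fold change over the 36 genes was 0.16 in C3S cells and 0.09 in WT cells, beside -0.01 and -0.02 over all genes tested.

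The comparisons in C3S and in WT cells share no library, and 13 members were higher after H2O2 by adjusted p in both, against 9.83% of all genes tested. Besides the 4 Hsp70 genes above they were Hspb1, Hspb8, Hsph1, Hspd1, Hsp90ab1, Dnaja3, Dnajb1, Bag3 and Stip1. Hspa1a and Hspa1b, which share reads, were counted separately. Dnaja3, Hspa1l, Hspd1 and Stip1 lost the threshold in each line under at least 1 other setting or with a library left out. Hsp90ab1 did so in WT cells. A further 8 passed in C3S cells only by this threshold (Hspa4l, Hspa9, Hsp90aa1, Dnaja2, Dnajb2, Dnajb4, Dnajb6 and Ahsa1), and 2 in WT cells only (Hspa8 and Hspe1). Passing in one line and not in the other is not itself a difference between lines. Of these 10, the interaction passed for Hspa4l, Hspa9, Hsp90aa1 and Dnajb4.

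**Figure D3:**
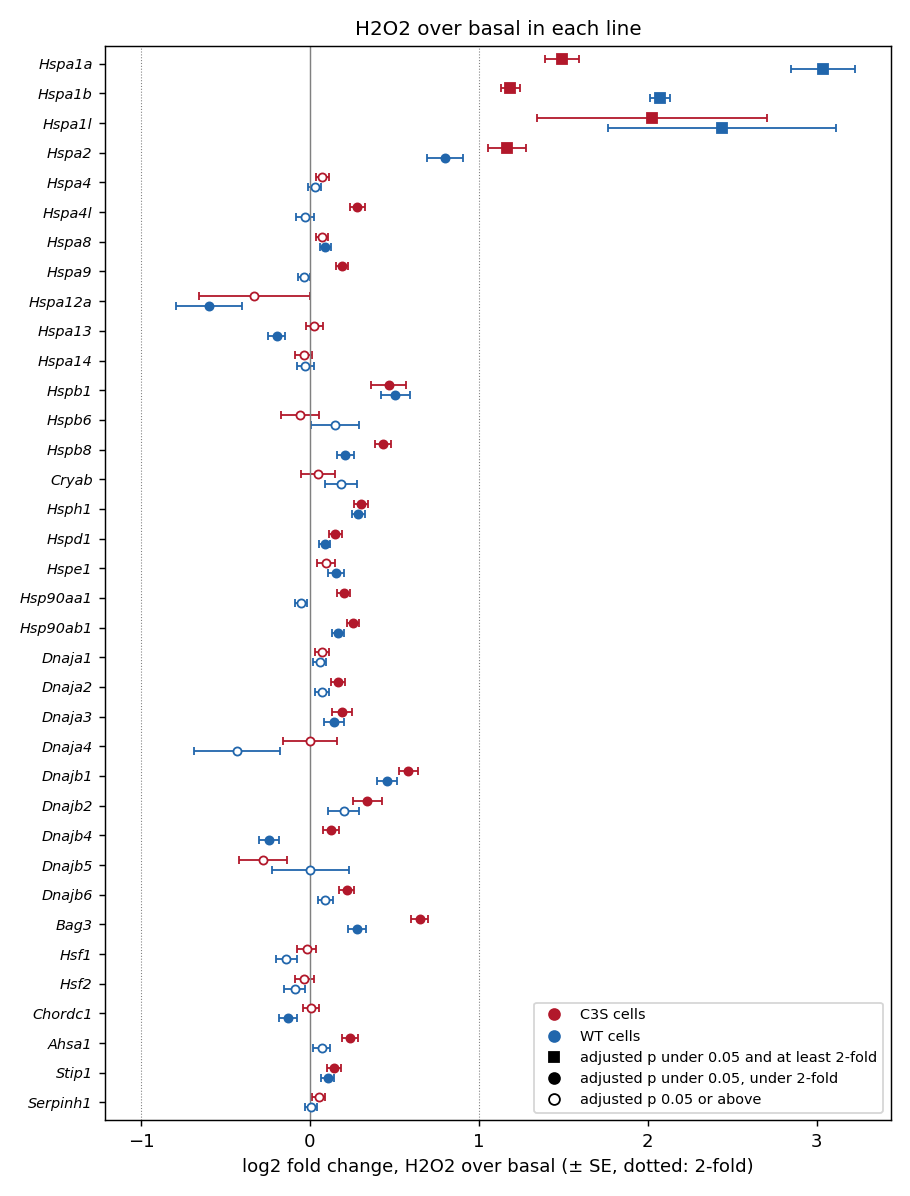
Log2 fold change of H2O2 over basal (horizontal axis, bars are SE from the edgeR fit of 4 libraries) for the 36 genes in C3S cells (red) and WT cells (blue). Squares passed adjusted p and 2-fold, filled circles adjusted p alone and open circles neither. Hspa1a, Hspa1b and Hspa1l stand past 2-fold in both lines and Hspa2 in C3S cells.

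Among the small heat shock proteins, Hspb1 (Hsp25 in the mouse) rose by 0.47 in C3S cells and by 0.51 in WT cells on a log2 scale (SE 0.102 and 0.0866). It had 353 to 366 normalised counts in C3S H2O2 libraries, against 254 to 267 in C3S basal libraries, and 569 to 628 in WT H2O2 libraries, against 374 to 467 in WT basal libraries. C3S libraries thus lay below WT libraries in both conditions, with log2 differences of -0.74 after H2O2 (edgeR adjusted p = 7.24e-11) and -0.70 at baseline (edgeR adjusted p = 1.55e-07). A limit here is that 50.1% of the possible 50-base reads of Hspb1 also occur in other genes, mostly the pseudogene Hsp25-ps1. Hspb8, the partner of Bag3 in selective autophagy, rose by 0.43 in C3S cells and 0.21 in WT cells, and the difference of 0.22 passed the interaction test (SE 0.0683, edgeR adjusted p = 0.0266). Cryab (alpha-B crystallin) had log2 fold changes of 0.05 and 0.19 and Hspb6 of -0.06 and 0.15 in C3S and WT cells, and none of these passed.

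The abundant constitutive chaperones moved by small amounts. Hspa8, the constitutive cytosolic Hsp70, had 71538 and 72097 normalised counts in C3S H2O2 libraries, against 66537 and 70044 in C3S basal libraries, and 69072 and 66128 in WT H2O2 libraries, against 62257 and 64636 in WT basal libraries. The log2 fold changes were 0.07 in C3S cells (adjusted p = 0.122) and 0.09 in WT cells (edgeR adjusted p = 0.0239). Hsp90ab1, the constitutive Hsp90 and the most abundant of the 36 genes per kilobase of exon in every group, had 80939 and 82253 in C3S H2O2 libraries, against 68756 and 68080 in C3S basal libraries. WT cells had 81226 and 77228 in H2O2 libraries, against 69748 and 71520 in basal libraries. It rose in both lines, by 0.25 in C3S cells (edgeR adjusted p = 6.19e-06) and 0.17 in WT cells (edgeR adjusted p = 3.63e-05), with no overlap between H2O2 and basal libraries. Of the possible 50-base reads of Hspa8, 39.4% occur in other genes.

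Hsp90aa1, the stress-inducible Hsp90, followed the line more than the treatment. It had 59597 and 62731 normalised counts in C3S H2O2 libraries, against 52248 and 54310 in C3S basal libraries. In WT cells it had 36020 and 35831 in H2O2 libraries, against 35997 and 38640 in basal libraries. Every C3S library was above every WT library. It rose by 0.20 after H2O2 in C3S cells (edgeR adjusted p = 0.000268) and differed by -0.05 in WT cells (adjusted p = 0.209), and the interaction of 0.25 passed (SE 0.0509, edgeR adjusted p = 0.000619). Of its possible 50-base reads, 47.5% occur in other genes, mostly the pseudogene Gm12346.

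The mitochondrial members also moved little. Hspa9 (mortalin), the Hsp70 of the mitochondrial matrix, had 26977 and 26957 normalised counts in C3S H2O2 libraries, against 23502 and 23753 in C3S basal libraries. WT cells had 19839 and 19444 in H2O2 libraries, against 19859 and 20416 in basal libraries. It rose in C3S cells by 0.19 (edgeR adjusted p = 0.000256) and not in WT cells (-0.04, adjusted p = 0.436), a difference of 0.23 (SE 0.0476, edgeR adjusted p = 0.00108). Hspd1 (Hsp60), which forms the folding chamber closed by Hspe1 (Hsp10), had 22759 and 22065 in C3S H2O2 libraries, against 19756 and 20625 in C3S basal libraries. In WT cells it had 23211 and 23382 in H2O2 libraries, against 21830 and 22044 in basal libraries. The rise was 0.15 in C3S cells (edgeR adjusted p = 0.00361) and 0.09 in WT cells (edgeR adjusted p = 0.0375). Hspe1 changed by 0.10 in C3S cells (adjusted p = 0.162) and 0.15 in WT cells (edgeR adjusted p = 0.00536), and 42.1% of possible 50-base reads of Hspd1 and 22.8% of those of Hspe1 occur in other genes.

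The nucleotide exchange factors differed among themselves. Bag3, which couples Hsp70 to autophagy, had 2068 and 2179 normalised counts in C3S H2O2 libraries, against 1324 and 1381 in C3S basal libraries. WT cells had 1837 and 1682 in H2O2 libraries, against 1397 and 1505 in basal libraries. It rose by 0.65 in C3S cells (SE 0.0525, edgeR adjusted p = 6.67e-09) and by 0.28 in WT cells (SE 0.0544, edgeR adjusted p = 1.49e-05), and the responses differed by 0.37 (SE 0.0786, edgeR adjusted p = 0.00123), the reverse of the order for Hspa1a and Hspa1b. Hsph1 (Hsp110) rose by 0.30 in C3S cells and 0.29 in WT cells, with a difference of 0.01 (SE 0.0573, adjusted p = 0.925). Hspa4, a constitutive Hsp110, had 10716 and 10692 in C3S H2O2 libraries, against 10003 and 10342 in C3S basal libraries. In WT cells it had 12374 and 12685 in H2O2 libraries, against 12356 and 12208 in basal libraries. H2O2 did not change Hspa4 beyond the test in either line (0.07 and 0.03), and C3S libraries were lower in both conditions, with log2 differences of -0.23 after H2O2 and -0.27 at baseline.

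Of the 9 J-domain proteins, Dnajb1 (Hsp40), the main partner of inducible Hsp70, had the largest rise in log2 fold change in both lines. It had 1684 and 1724 normalised counts in C3S H2O2 libraries, against 1094 and 1178 in C3S basal libraries, and 1310 and 1300 in WT H2O2 libraries, against 1006 and 894 in WT basal libraries. The log2 fold changes were 0.58 (SE 0.0557, edgeR adjusted p = 6.96e-08) in C3S cells and 0.46 (SE 0.0598, edgeR adjusted p = 8.93e-10) in WT cells. The difference of 0.13 did not pass (SE 0.0838, adjusted p = 0.366). Dnaja3, the mitochondrial J-domain protein, rose by 0.19 and 0.14. Dnaja2, Dnajb2 and Dnajb6 rose in C3S cells by 0.17 to 0.34 and had 0.07 to 0.20 in WT cells, where none passed. Dnaja1 (0.07 and 0.06), Dnaja4 (0.00035 and -0.43) and Dnajb5 (-0.28 and 0.0031) passed in neither line.

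The 4 members that fell after H2O2 by adjusted p did so in WT cells, and all by less than 2-fold. They were Hspa12a, an atypical Hsp70 (-0.60, edgeR adjusted p = 0.00874), Dnajb4 (-0.24, edgeR adjusted p = 0.000468), Hspa13, a microsomal Hsp70 (-0.20, edgeR adjusted p = 0.000735), and Chordc1, an Hsp90 cochaperone (-0.13, edgeR adjusted p = 0.0354). In C3S cells the same genes had -0.33, 0.13, 0.02 and 0.01. The interaction passed for Dnajb4 (0.37, SE 0.0732, edgeR adjusted p = 0.000594) and Hspa13 (0.22, SE 0.0709, edgeR adjusted p = 0.0355), and not for Hspa12a (0.26, adjusted p = 0.708) or Chordc1 (0.14, adjusted p = 0.214). The factors themselves, Hsf1 and Hsf2, had changes of -0.14 to -0.02 over both lines, and none passed. Stip1 (Hop), which links Hsp70 to Hsp90, rose by 0.14 in C3S cells and 0.11 in WT cells. Ahsa1, the activator of the Hsp90 ATPase, rose by 0.24 in C3S cells and had 0.07 in WT cells. Hspa14, an Hsp70 of the ribosome-associated complex in human cells, passed no test in any of the 5 comparisons, with 1965 to 2101 normalised counts in every library. Serpinh1 (Hsp47), the collagen chaperone, had 19064 and 18691 in C3S H2O2 libraries, against 18523 and 17901 in C3S basal libraries, and 17358 and 17267 in WT H2O2 libraries, against 17813 and 16658 in WT basal libraries. Its H2O2 changes of 0.05 and 0.01 did not pass.

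Over the 36 genes the interaction called 0 higher and 1 lower (Hspa1a), against 0.997% and 0.406% of all genes tested. By adjusted p alone 7 members had a larger response in C3S cells (Hspa4l, Hspa9, Hspa13, Hspb8, Hsp90aa1, Dnajb4 and Bag3) and 2 a smaller one (Hspa1a and Hspa1b), against 9.18% and 3.35% of all genes. All 7 were under 2-fold, between 0.22 and 0.37 on the log2 scale, and Hspa13 and Hspb8 lost the threshold under at least 1 other setting. With the copies summed, the count of 2 becomes 1, the sum itself. The median difference over the family was 0.08, beside 0.02 over all genes tested.

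**Figure D4:**
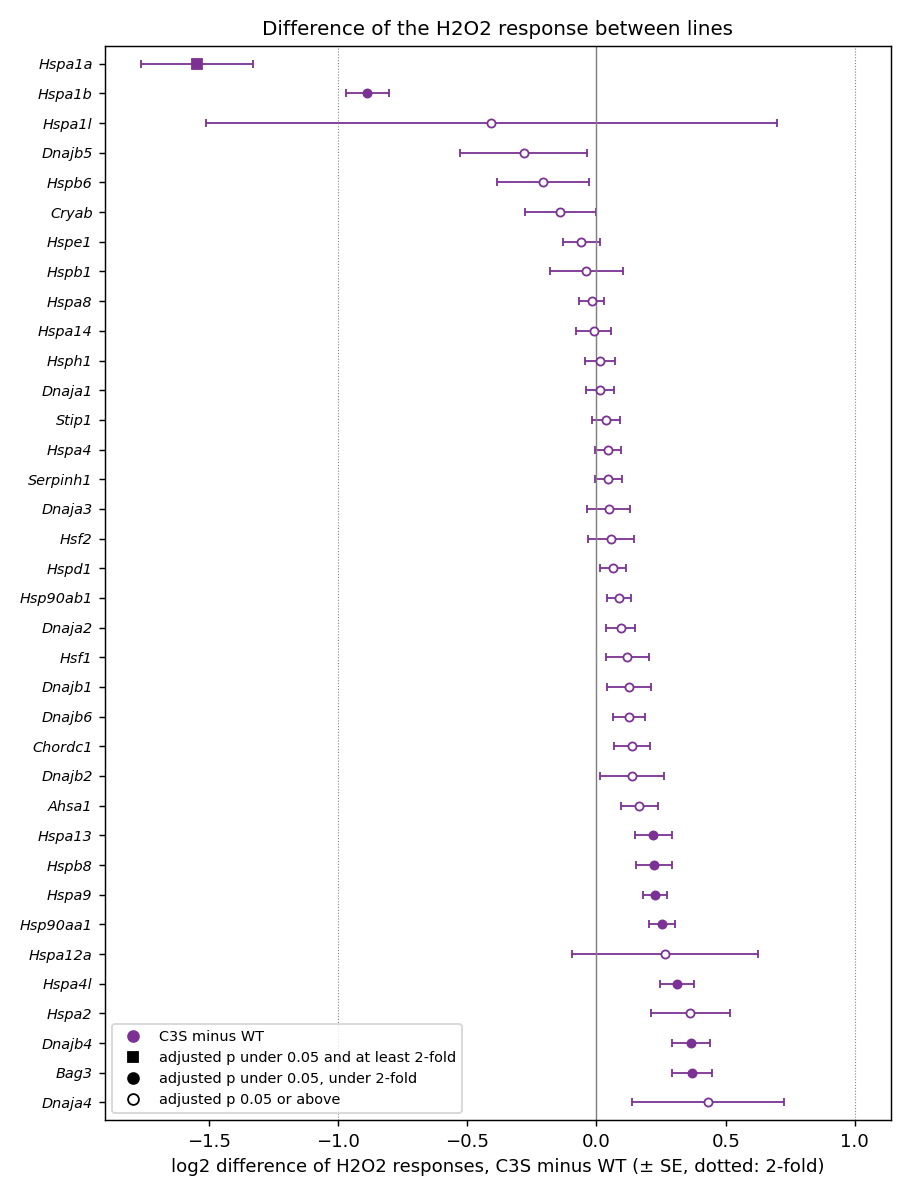
Difference of the log2 H2O2 response, C3S minus WT (horizontal axis, bars are SE from the edgeR fit of 8 libraries), for the 36 genes in order of the difference. The square passed adjusted p and 2-fold, filled circles adjusted p alone and open circles neither. Hspa1a at -1.55 and Hspa1b at -0.89 stand apart on the left, and the 7 genes that passed on the right lie between 0.22 and 0.37.

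The lines also differed directly in some members. After H2O2, 4 members were called higher in C3S than in WT cells (Hspa4l, Dnaja4, Dnajb4 and Dnajb5) and 2 lower (Hspa1a and Hspa12a), against 7.83% and 10.6% of all genes tested. The count of 2 becomes 1 when the Hspa1a and Hspa1b reads are summed. At baseline, 3 were called higher (Hspa4l, Dnaja4 and Dnajb5) and 1 lower (Hspa12a), against 6.07% and 9.37%. These counts of called members are near what the shares of 36 genes would give. By adjusted p alone 21 were higher and 8 lower after H2O2, against 32.5% and 31.9%. At baseline 15 were higher and 7 lower, against 28.5% and 28.7%, and the count of 7 fell to 4 without C3S basal replicate 1. The median log2 difference over the family was 0.14 after H2O2 and 0.10 at baseline, beside -0.02 and -0.0036 over all genes.

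Hspa4l, another Hsp110 known from testis, had 3858 and 3919 normalised counts in C3S H2O2 libraries, against 1498 and 1555 in WT H2O2 libraries. At baseline it had 3174 and 3228 in C3S libraries, against 1558 and 1559 in WT libraries. It was called higher in C3S cells in both conditions, by 1.35 after H2O2 (SE 0.0444, edgeR adjusted p = 5.37e-34) and 1.04 at baseline (SE 0.0528, edgeR adjusted p = 1.52e-24). H2O2 raised it in C3S cells by 0.28 (edgeR adjusted p = 3.56e-05), against -0.03 in WT cells, a difference of 0.31 (SE 0.0659, edgeR adjusted p = 0.00119).

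Dnajb4, a cytosolic J-domain protein close to Dnajb1, had 2299 and 2322 normalised counts in C3S H2O2 libraries, against 1027 and 975 in WT H2O2 libraries. At baseline it had 2105 and 2130 in C3S libraries, against 1187 and 1180 in WT libraries. The difference was called after H2O2 (log2 change 1.21, SE 0.0519, edgeR adjusted p = 1.97e-28). At baseline it was 0.84 (SE 0.0559, edgeR adjusted p = 1.57e-19), under 2-fold.

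Dnajb5, another cytosolic J-domain protein, had 143 and 142 normalised counts in C3S H2O2 libraries, against 65.1 and 60.0 in WT H2O2 libraries. At baseline it had 183 and 164 in C3S libraries, against 65.2 and 59.5 in WT libraries. It was higher in C3S cells by 1.19 after H2O2 (SE 0.183, edgeR adjusted p = 1.07e-07) and 1.47 at baseline (SE 0.175, edgeR adjusted p = 1.80e-10).

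Dnaja4 had 141 and 120.0 normalised counts in C3S H2O2 libraries, against 59.6 and 35.8 in WT H2O2 libraries. At baseline it had 136 and 126 in C3S libraries, against 57.3 and 72.3 in WT libraries. The log2 difference was 1.44 after H2O2 (SE 0.211, edgeR adjusted p = 3.99e-08) and 1.01 at baseline (SE 0.187, edgeR adjusted p = 5.80e-06). The baseline value fell under 2-fold without WT basal replicate 1 (0.85) or C3S basal replicate 1 (0.97). Exons of Wdr61 on the opposite strand cover 1581 bases of Dnaja4 exons, so its reads are uncertain if strand was not used.

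Hspa12a was the member called lower in C3S cells in both conditions. It had 24.0 and 27.8 normalised counts in C3S H2O2 libraries, against 69.1 and 67.5 in WT H2O2 libraries. At baseline it had 30.0 and 34.8 in C3S libraries, against 110 and 96.7 in WT libraries. The log2 differences were -1.39 after H2O2 (SE 0.28, edgeR adjusted p = 1.90e-05) and -1.66 at baseline (SE 0.235, edgeR adjusted p = 1.77e-08).

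By adjusted p, 14 members were higher in C3S cells in both conditions, against 24% of all genes tested (Hspa4l, Hspa8, Hspa9, Hspb6, Hsp90aa1, Dnaja2, Dnaja4, Dnajb1, Dnajb4, Dnajb5, Hsf2, Chordc1, Ahsa1 and Stip1) and 5 were lower in both, against 23.1% (Hspa4, Hspa12a, Hspa13, Hspb1 and Dnaja1). Hsp90aa1 was higher by 0.77 after H2O2 and 0.51 at baseline (SE 0.0315 and 0.0388, edgeR adjusted p = 1.94e-29 and 3.03e-17). Of the Hsp90 cochaperones among the members, Ahsa1 differed by 0.63 and 0.47, Chordc1 by 0.43 and 0.29 and Stip1 by 0.19 and 0.15, after H2O2 and at baseline. Hsp90ab1 differed by 0.04 and -0.05, and neither passed. Hsf2 was higher by 0.46 and 0.40, and Hsf1 by 0.14 after H2O2 (edgeR adjusted p = 0.0439) and 0.02 at baseline (adjusted p = 0.847).

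**Figure D5:**
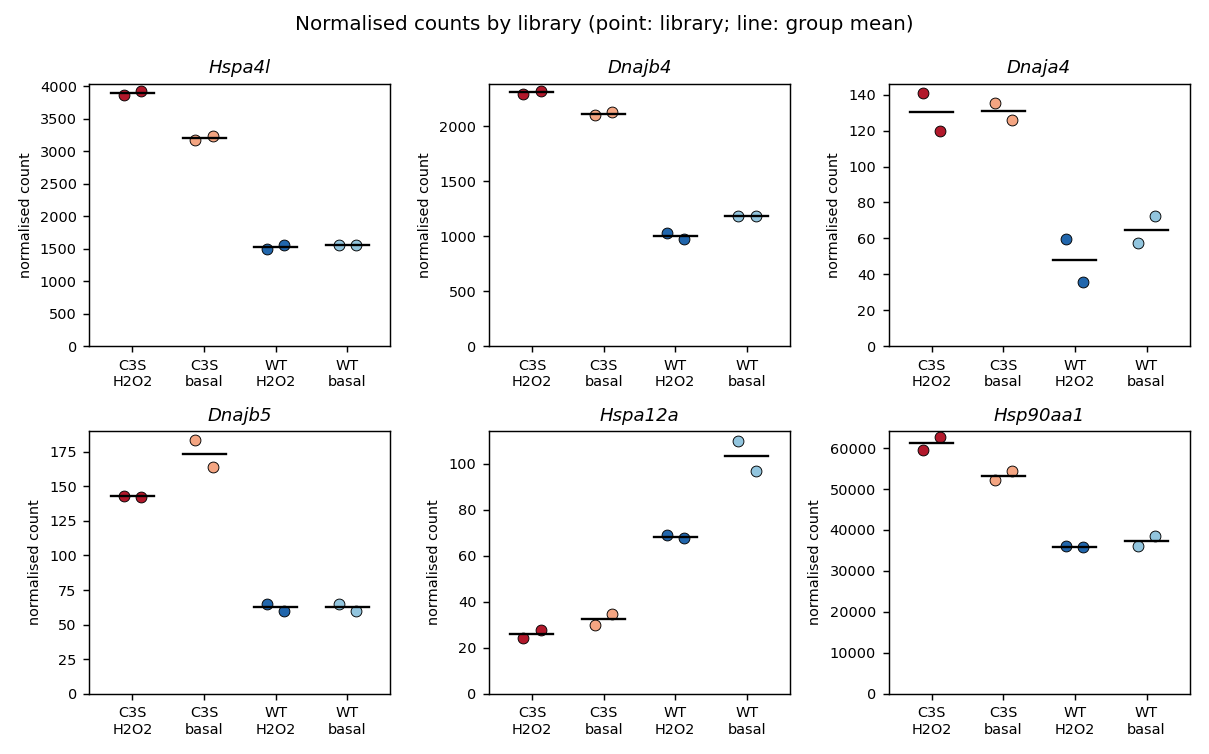
Normalised counts (vertical axis, from 0, a scale of its own for each gene) of Hspa4l, Dnajb4, Dnaja4, Dnajb5, Hspa12a and Hsp90aa1 in C3S H2O2, C3S basal, WT H2O2 and WT basal cells. Points are libraries, 2 per group, and lines are group means. For Hspa12a every C3S library lies below every WT library, and for the other 5 genes every C3S library lies above.

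Levels were compared between genes per kilobase of exon, from group means of normalised counts and GENCODE exon lengths. In WT basal cells Hsp90ab1 had 23553 counts per kilobase, Hspa8 14752 and Hsp90aa1 9493, and Hspa1l had the lowest level at 1.26. Hspa1b had 888 in C3S H2O2 cells, against 391 in C3S basal cells, and 927 in WT H2O2 cells, against 221 in WT basal cells. The inducible Hsp70 copies thus stayed far below Hspa8, at 16698 in C3S H2O2 cells and 15717 in WT H2O2 cells. Reads shared with other genes are not corrected for in these levels.

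Other chaperone genes were summarised from lists by function. The cytosolic chaperonin TRiC and its partner prefoldin, which fold actin and tubulin, had 13 of 14 genes tested. The counts after H2O2 by adjusted p in all these lists stand beside 17.2% of all genes higher and 20.8% lower in C3S cells, and 18.1% higher and 26.2% lower in WT cells. After H2O2, 1 of the 13 was higher in C3S cells and 4 in WT cells by adjusted p, with 0 lower and 0 called at 2-fold, within -0.08 to 0.13 and -0.07 to 0.11 on the log2 scale. Of 24 other Hsp70 and Hsp90 cochaperones, 6 were higher in C3S cells and 2 in WT cells, with 0 lower and 0 called. Of 9 mitochondrial chaperones and proteases, 1 was higher and 1 lower in C3S cells, and 2 higher and 1 lower in WT cells, with 0 called. Of 26 other J-domain genes tested, 5 were higher and 7 lower in C3S cells, and 3 higher and 6 lower in WT cells. The called ones were Dnajc22 and Dnajc28 in both lines and Dnajc6 in C3S cells, all at no more than 55.8 normalised counts. Between lines, Dnajc6 and Dnajc27 were called higher and Dnajc15 and Dnajc28 lower in C3S than in WT cells after H2O2. None of the 26 was called at baseline. By adjusted p alone 6 were higher and 4 lower at baseline, against 28.5% and 28.7% of all genes tested. The between-line counts at 2-fold stand beside 7.83% of all genes higher and 10.6% lower after H2O2, and 6.07% and 9.37% at baseline. The C3S calls of Dnajc6 and Dnajc28 after H2O2 were lost under other settings.

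Further heat shock factor genes and targets gave 9 genes tested of a list of 15. After H2O2, 3 were higher in C3S cells and 5 in WT cells, with 0 lower. Zfand2a, an arsenite-inducible partner of the proteasome, rose by 0.87 in C3S cells and by 0.58 in WT cells (SE 0.0604 and 0.0568). The difference of responses passed for Zfand2a (0.29, edgeR adjusted p = 0.0142). Ubb, which encodes ubiquitin, differed the other way (-0.52, SE 0.168, edgeR adjusted p = 0.0361). The differences for Zfand2a and Ubb lost the threshold under other settings, among them a library left out. Ier5, which encodes an activator of Hsf1, had 3515 and 3327 normalised counts in C3S H2O2 libraries, against 1997 and 1818 in C3S basal libraries, and 1302 and 1298 in WT H2O2 libraries, against 1201 and 1067 in WT basal libraries. It was the gene of this list called higher in C3S than in WT cells after H2O2 (log2 change 1.40, SE 0.0468, edgeR adjusted p = 1.23e-33), and its response differed between lines by 0.65 (SE 0.0803, edgeR adjusted p = 3.97e-07). Hsf4 was called lower in C3S cells at baseline (log2 change -1.71, SE 0.422, edgeR adjusted p = 0.000452), at no more than 41.5 normalised counts.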

How the data were processed

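The members and the lists used here were chosen with earlier results of these data known. Single-end reads of 50 bases from 8 directional libraries were, per the study's methods and the submitters' processing notes, trimmed by the authors with Scythe and Sickle and aligned to mm10 with TopHat2 2.0.10. The deposited table holds expected counts of uniquely mapped reads over exons, which need not be whole (58.4% of values above 0 were, within 1e-09). Which program counted, with which strand setting and how it treated reads shared between genes, is not given in the sources used here. A second deposited sheet holds a signal that the authors made by dividing these counts by 1 size factor per library in MATLAB, and it served only to check the scaling, since each column of the first sheet was a constant multiple of its column here. A further 24 columns of group values were not used.

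Counts were rounded, scaled by median-of-ratios size factors and tested by edgeR 4.0.16 (quasi-likelihood F-test) in R 4.3.3, on the 4 libraries compared or, for the interaction, on all 8. Genes with a mean of at least 10 counts in 1 group or more were kept, 13538 in all, and 5503 were left out. A call needed an adjusted p under 0.05 and a 2-fold change. The SE is the size of the log2 fold change divided by the square root of F. The procedure was tested on simulated data for H2O2 in WT cells only, with every planted change above 2-fold. That test did not cover the interaction or smaller changes. Column names number the replicates but do not tie them to the lettered labels, so libraries were used as unpaired replicates of a group. Replicates of a group differed beyond counting noise (chi-square per gene 2.66 to 4.30).

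Values are given in every library for members called in any comparison, for the Hspa1a and Hspa1b sum and for members with a group mean of at least 10000 normalised counts. Other members, and list genes called in a comparison, are given by log2 fold change or range. Bag3, Dnajb1, Hspb1, Zfand2a, Ubb and Ier5 were given in more detail after their values were seen. Counts by adjusted p alone under the alternatives were added after seeing the data. Alternatives were TMM, DESeq2 1.42.0, no filter, a minimum mean of 50, all 8 libraries in one fit, a replicate block, summed copies and each library left out. Genes were placed with GENCODE M21 (GRCm38) and promoters taken from RefSeq (GRCm38.p6).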

Additional observations from a re-analysis of the deposited data

Results flagged for a closer look

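The H2O2 response differed between lines, by the interaction test of edgeR on all 8 libraries, for 9 members and for the Hspa1a and Hspa1b sum. Of all genes tested, 9.18% had a larger response in C3S cells and 3.35% a smaller one by the same adjusted p. As C3S minus WT on the log2 scale, the response was smaller in C3S cells for Hspa1a (-1.55), Hspa1b (-0.89) and their sum (-1.07). It was larger in C3S cells for Bag3 (0.37), Dnajb4 (0.37), Hspa4l (0.31), Hsp90aa1 (0.25), Hspa9 (0.23), Hspb8 (0.22) and Hspa13 (0.22). Of these, Hspa1a and the sum passed 2-fold as well. Dnajb4 fell in WT cells (-0.24) and rose in C3S cells (0.13) after H2O2, both by adjusted p, and each of these changes lost the threshold under at least 1 alternative. The differences for Hspa13 and Hspb8 did so as well.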

How the results depend on the processing

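No alternative turned the direction of a member that passed the adjusted p in a comparison, and none did so for such a gene of the other chaperone lists. The adjusted p was lost under at least 1 alternative by 6 of 21 members for H2O2 in C3S cells, 10 of 19 for H2O2 in WT cells, 7 of 29 for C3S against WT after H2O2, 6 of 22 at baseline and 2 of 9 for the interaction (Hspa13 and Hspb8). These checks of single genes were added after seeing the data. With no minimum fold, members called higher and lower became 21 and 0 for H2O2 in C3S cells, 15 and 4 for H2O2 in WT cells, 21 and 8 for C3S against WT after H2O2, 15 and 7 at baseline, and 7 and 2 for the interaction. With Hspa1a and Hspa1b summed, the members called lower in C3S cells after H2O2 became 1, and those with a smaller C3S response by adjusted p alone became 1. With DESeq2, the members lower after H2O2 in WT cells by adjusted p alone became 1. Hspa1l in C3S cells was also not called with DESeq2 (2.09, adjusted p = 0.135). With 1 library left out at a time, members called higher ranged from 3 to 4 (H2O2 in C3S cells), 2 to 3 (H2O2 in WT cells) and 2 to 3 (C3S against WT at baseline). By adjusted p alone, H2O2 gave 9 to 14 members higher and 3 to 6 lower in WT cells and 16 to 19 higher in C3S cells, and 4 to 9 members were lower in C3S cells at baseline. Where this left 1 library in a group, that library is assumed to vary like the others. A replicate block left the 4 and 3 members called higher after H2O2 in C3S and WT cells at 4 and 3 and moved no other call or count beyond its limit. Deviations of same-numbered libraries correlated at 0.033 to 0.106, so the numbers were not taken to pair them. TMM in place of median-of-ratios moved the median gene by at most 0.041 on the log2 scale in either direction and changed no call among the members. By adjusted p alone, TMM gave 20 members higher and 3 lower after H2O2 in WT cells. In C3S cells it gave 21 and 0. Low counts limit Hspa1l, Hspa12a, Dnaja4 and Dnajb5, and reads shared between near-identical genes limit Hspa1a, Hspa1b, Hspb1, Hspa8, Hspd1 and Hsp90aa1.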

Other observations

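Between lines, the other chaperone lists moved both ways by adjusted p. After H2O2, C3S cells had 6 of 13 TRiC and prefoldin genes higher than WT cells and 4 lower, with 7 higher and 3 lower at baseline. Of 24 other Hsp70 and Hsp90 cochaperones, 9 were higher and 6 lower after H2O2, and 7 higher and 5 lower at baseline. Over all genes tested, 32.5% were higher and 31.9% lower after H2O2, and 28.5% and 28.7% at baseline, and the cochaperone counts are near these shares. None of these list genes was called at 2-fold. Fkbp5, an Hsp90 cochaperone of steroid receptors, had 906 and 1001 normalised counts in C3S H2O2 libraries, against 1253 and 1234 in WT H2O2 libraries, and was lower in C3S cells (log2 difference -0.38, SE 0.0597, edgeR adjusted p = 1.34e-07). It was singled out after its values were seen.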
